A study of Mus musculus with 12 samples.

Results

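The clustered histone genes are the genes of the Hist1, Hist2, Hist3, and Hist4 clusters, and they were taken as every row of the count table whose symbol starts with Hist1h, Hist2h, Hist3h, or Hist4h. There were 70 such genes among 55418. In GENCODE M21 on GRCm38, 56 of them carry a Hist1 symbol and lie on chromosome 13, 10 lie on chromosome 3 (Hist2), 3 on chromosome 11 (Hist3), and 1 on chromosome 6 (Hist4). By histone class there were 6 H1, 20 H2A, 19 H2B, 12 H3, and 13 H4 genes, and 3 of the 70 are annotated as pseudogenes (Hist3h2bb-ps, Hist1h2aj, and Hist1h2al). Poly-A RNA was sequenced from the brainstem (medulla and pons) of 12 outbred CFW mice at P15, with 1 library per mouse. Saline mice (3 females and 3 males) received saline 2 times daily from P1 to P14. Morphine mice (3 females and 3 males) received 15 mg/kg morphine sulfate pentahydrate on the same schedule. Both were injected subcutaneously, litters held both treatments, and tissue was taken 16 h after the last injection, a time the study treats as spontaneous withdrawal. The dam of each mouse was not in the labels used here, so that mice sharing a litter could not be identified. The labels give brainstem, whereas the deposited extraction text names spinal cords.

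Histones package DNA. Core histones H2A, H2B, H3, and H4 form the nucleosome, and the linker histone H1 binds the DNA between nucleosomes. Most clustered histone genes are expressed when cells copy their DNA in S phase, have no introns, and give RNAs that end just after a short stem-loop instead of in a poly-A tail. That stem-loop is bound by the protein SLBP, which directs the processing and the translation of the RNA. Some clustered genes also give polyadenylated RNAs in differentiated cells, and poly-A selection keeps those and loses RNAs that end at the stem-loop.

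The stem-loop was searched in the part of each annotated transcript after the stop codon. It was found for 46 of the 70 members. Among the others, Hist2h2be, Hist1h2bc, Hist1h2bq, and Hist1h2br have more than 150 bases after the stop codon. The 3 pseudogenes have no annotated coding sequence to search after. Many of the rest, such as Hist1h2ai and Hist1h4k, have 0 bases there, so the search could not find the stem-loop. The following members carry the results below and have it, so it is shown with the paired stem in capitals and the loop in lower case, 5′ to 3′ and in DNA letters.
Hist3h2a: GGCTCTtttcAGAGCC
Hist1h4i: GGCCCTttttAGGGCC
Hist1h3d: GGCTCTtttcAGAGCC
Hist1h1c: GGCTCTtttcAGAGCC
Hist3h2ba: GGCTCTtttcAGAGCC
Hist1h2be: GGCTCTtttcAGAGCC
The sequence was the same in 5 of these 6 members and differed in stem and loop in Hist1h4i. It began 41 bases after the stop codon in Hist3h2a and 24 bases after it in Hist1h1c. The annotated transcripts did not end there: they ran on for 1643 bases in Hist3h2a, 330 in Hist1h4i, 752 in Hist1h3d, 840 in Hist1h1c, 169 in Hist3h2ba, and 1861 in Hist1h2be. Hist1h2bc (ENSMUSG00000018102, chr13:23684199-23692908, plus strand) was different, since its transcript of 1156 bases is spliced from 2 exons and no stem-loop was found in the 742 bases after its stop codon. Of all members, 65 have a gene model of 1 exon and 5 have more than 1.

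Hist1h2bc lies head to head with Hist1h2ac, an H2A gene on the minus strand. The RefSeq promoter window of Hist1h2ac (GRCm38.p6, chr13:23683910-23684209, minus strand) spans the interval between both genes and holds the start of Hist1h2bc. It is shown because Hist1h2bc was the most abundant member and one of those called. The capitals mark 1 TATA box (TATAAA), 3 CCAAT boxes (CCAAT), and 1 octamer (ATTTGCAT), each searched on both strands, with the strand of Hist1h2ac printed 5′ to 3′.
Hist1h2ac: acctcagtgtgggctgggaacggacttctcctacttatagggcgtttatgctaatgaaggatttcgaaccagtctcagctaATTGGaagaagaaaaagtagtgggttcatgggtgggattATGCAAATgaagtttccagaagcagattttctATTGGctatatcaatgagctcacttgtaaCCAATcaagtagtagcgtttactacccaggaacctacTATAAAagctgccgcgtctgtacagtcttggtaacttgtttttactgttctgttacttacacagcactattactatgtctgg
A promoter window of 300 bases was found for 62 of the 70 members. CCAAT was present in 53 of these 62 windows (85.5%), against 37.4% of all 32851 RefSeq windows. It was in every H1, H2A, H2B, and H3 window and in 3 of the 12 H4 windows. TATAAA was in 35 windows (56.5%, against 13.6% of all windows). The octamer was in 13 (21%, against 1.74%), of which 7 were H2A and 6 were H2B. The window of Hist3h2a held 2 CCAAT boxes and 1 octamer and no TATAAA, and that of Hist1h4i held 1 TATAAA and neither of the others. The windows of 10 pairs, each an H2A and an H2B gene on opposite strands, share bases, so these counts are not over independent windows. These are counts of letters in a window and no measure of binding.

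Several libraries stood apart. The library labelled morphine male 6 went against its sex label: Xist, the RNA of the inactive X chromosome, was at 379.9 CPM there against 0.398 to 2.71 CPM in the other males, and the Y-linked gene Ddx3y was at 12.7 CPM against 117.8 to 198.8 CPM. It was kept under its label, and results are given with and without it. Saline males 1 and 2 had 25800 and 27500 CPM of Mbp, a gene of myelin, whereas the other 10 libraries had 8350 to 16500 CPM. CPM is the count of a gene relative to the TMM-scaled total of its library. The table held 27850565 to 48097947 counts per library, of which the 70 members together took 0.00629% to 0.00962%, or 2003 to 4627 counts. As a check of the tissue, Slc6a5, the glycine transporter of inhibitory brainstem neurons, was at 479 to 638 CPM over the 12 libraries, and Tph2, the serotonin synthesis enzyme of raphe neurons, at 20.2 to 41.6 CPM. The forebrain gene Emx1 was at 0.153 CPM or less in every library, whereas Neurod6, another forebrain marker, was at 7.02 to 13.2 CPM.

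Counts were found for 57 of the 70 members, and 13 were at 0 in every library. Another 26 members had 1 to 19 counts in all 12 libraries together, 11 had 20 to 99, 13 had at least 100 and under 1000, and 7 had 1000 or more. Of the 32921 counts on the family, 97.5% fell on the 20 members that passed the filter on low counts in the sex-combined fit. Members whose gene model extends far past the stop codon held most of these. Among the 27 members with more than 150 bases after the stop codon, 17 passed the filter and the median was 290 counts over all libraries. Among the 43 with 150 or fewer, or with no coding sequence, 3 passed and the median was 6 counts. The filter acts on counts and longer models collect more of them. Per kb of exon, the median of the first group was 0.334 CPM per kb in saline mice and that of the second 0.0428 CPM per kb. These values use all exon bases and do not allow for sequence shared with other genes. A longer annotated model, more sequence in no other gene, and a transcript that is retained by poly-A selection cannot be told apart here.

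**Figure D1:**
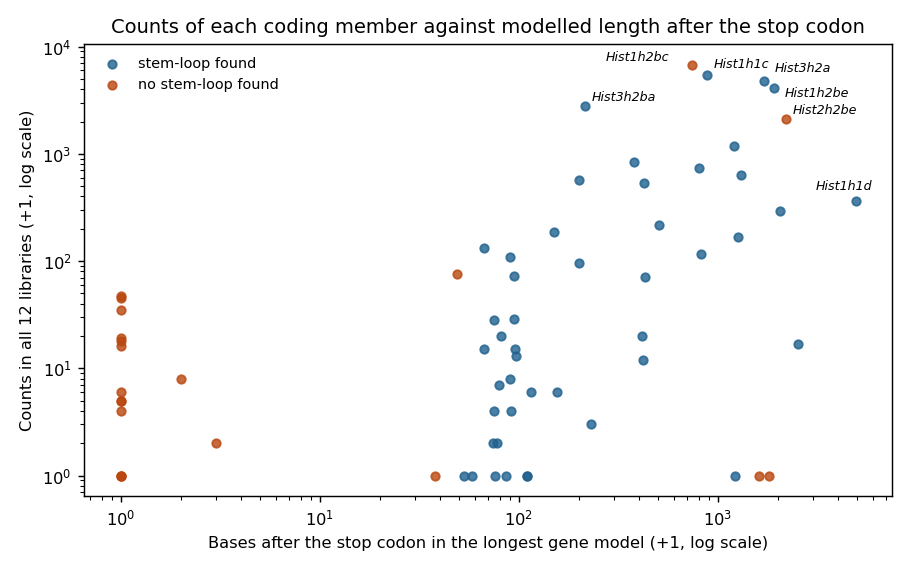
Counts of each coding member in all 12 libraries together (vertical axis, plus 1, log scale) against the number of bases after the stop codon in its longest gene model (horizontal axis, plus 1, log scale), with points coloured by whether a stem-loop was found. Gene models that end at the stop codon leave no bases in which to find one. Hist1h2bc, Hist1h1c, Hist3h2a, and Hist1h2be lie at the top, each with more than 150 modelled bases after the stop codon, while 3 members with long models are at 0.

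Shared sequence limits what could be counted. The share of 100-base windows of each member's transcripts that no other gene's transcript holds was computed, since a read of that length in a shared window cannot be placed on 1 gene. It was 0% for 5 members (Hist2h2aa1, Hist2h2aa2, Hist2h3c1, Hist2h3b, and Hist2h2bb), and all 5 were at 0 counts. Every exon base of these 5 also overlaps another annotated gene at the same place. All 1825 exon bases of Hist2h3c1 overlap Gm20634, and all 381 of Hist2h2bb overlap Gm20628 or Gm42743. Their 0% therefore includes overlapping gene models and is no measure of repeated sequence alone. Of the 16 members with at most 20%, 10 were at 0 and the highest had 19 counts. Of the 23 members with over 80%, 1 was at 0. That one, the H2A gene Hist1h2aa (89.7%), and its neighbor, the H2B gene Hist1h2ba (72.6%), are known as testis histones and were at 0 in all libraries. For the members with little sequence of their own, a value of 0 therefore does not show that the gene was silent. Hist2h2aa1 and Hist2h2aa2, for example, hold each other's windows and cannot be measured apart with these reads.

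The family was led by a handful of genes. In saline mice, Hist1h2bc, an H2B gene, gave 21.2% of the summed CPM of all members, the linker histone gene Hist1h1c 16.5%, and the H2A gene Hist3h2a 14.9%. With Hist1h2be, Hist3h2ba, and Hist2h2be, these 6 genes reached 78.9%. Levels per kb of exon allow for the length of a gene model but not for sequence shared with other genes. On this scale, Hist1h2bc had the highest level in saline mice (16.2 ± 1.88 CPM per kb, SD, n = 6). Hist3h2ba (12.1 ± 6.30) and Hist1h1c (9.34 ± 3.31) followed, with ranges over the 6 saline mice of 14.4 to 18.7, 5.58 to 19.7, and 6.19 to 14.1 CPM per kb. Hist3h2ba thus overlapped with both others, while every saline mouse of Hist1h2bc was above every one of Hist1h1c. Hist3h2a was next at 6.16 ± 0.718 CPM per kb, and its lowest saline mouse (5.12) was above the highest of Hist1h4i (4.84), the following gene at 3.38 ± 0.781. Below them came Hist1h2bg (2.58 ± 0.611), Hist1h2be (2.36 ± 0.210), Hist2h2be (2.03 ± 0.281), Hist1h3d (1.72 ± 0.537), and Hist1h1e (1.60 ± 0.332), and each overlapped with its neighbors in this order. Counted only over windows in no other gene, Hist1h2bc was at 23.8, Hist3h2a at 9.19, and Hist1h2bg at 5.58 CPM per kb. The order below Hist3h2a then changed. Hist1h2bg was above Hist1h4i (4.615), and Hist2h3c2 (3.99), which ranked 11 per kb of exon, was above Hist1h2be (2.69). The exons of Hist3h2a share 708 bases with Trim17 and Gm44313, and those of Hist1h2be share 496 bases with Hist1h1e and Gm11398, so their reads cannot be assigned with certainty. Whether the counting used strand is not given in the sources used here.

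**Figure D2:**
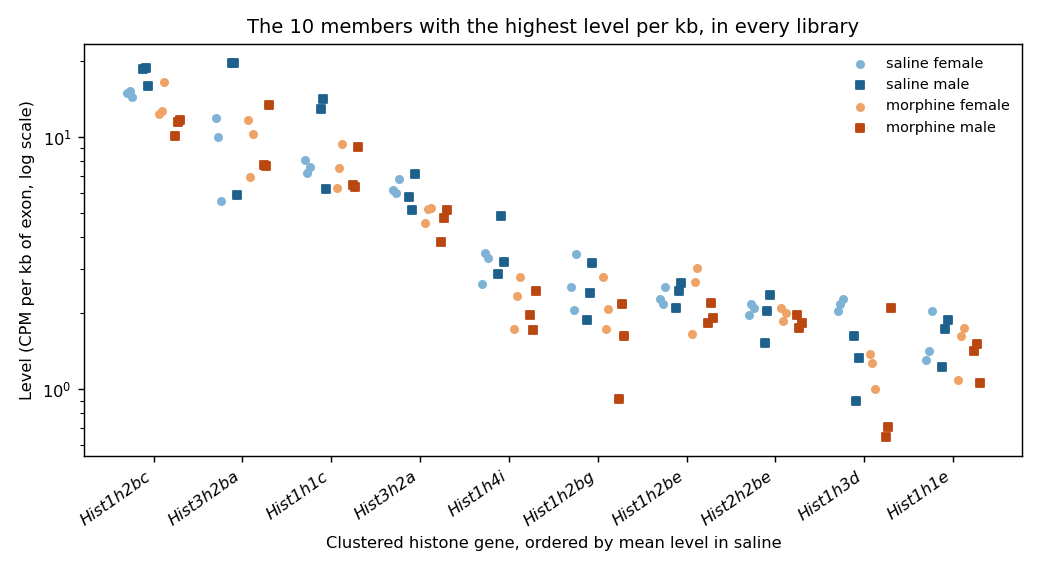
Level of the 10 members with the highest mean in saline mice, in CPM per kb of exon (vertical axis, log scale), with 1 point per library and colour and shape giving the 4 groups of 3 mice. Saline males 1 and 2 are the top points of Hist3h2ba and Hist1h1c, and the morphine points of Hist3h2a and Hist1h4i lie mostly below the saline points.

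Within single genes, libraries of the same treatment and sex also differed. Hist1h1c, which encodes the linker histone H1.2, was at 20.1 and 22.01 CPM in saline males 1 and 2 and at 9.65 to 14.6 CPM in the other 10 libraries. Hist3h2ba, an H2B gene, was at 12.1 and 12.0 CPM in those mice and at 3.42 to 8.18 CPM elsewhere. Both mice are thus the top libraries for each gene, as they are for Mbp. Hist1h3d, an H3 gene, was at 2.63 CPM in morphine male 6 and at 0.802 and 0.885 CPM in the other morphine males. Of the 20 tested members, 13 were highest in a saline library, 5 of them in saline male 1 or 2, and 14 were lowest in a morphine library. The same counts over all genes were not made.

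Summed over its members, H2B was the largest class, with 50.9% of the family's CPM in saline mice. In females, H2B summed to 41.3 ± 1.00 CPM with saline and 41.2 ± 5.37 CPM with morphine (SD, n = 3 each). In males, the sums were 48.7 ± 5.00 and 34.5 ± 2.79 CPM. The 3 saline males were thus above the 3 morphine males, whereas the females overlapped. H4 summed to 5.58 ± 0.950 and 4.32 ± 0.675 CPM in saline and morphine females and to 6.01 ± 0.150 and 3.84 ± 0.751 CPM in saline and morphine males. H2A summed to 15 ± 1.74 CPM in saline mice and 11.7 ± 1.51 CPM in morphine mice (n = 6 each), with ranges of 12.4 to 17.0 and 9.21 to 13.3 CPM that overlapped. H1 was at 18.8 ± 5.37 and 15.5 ± 2.54 CPM and H3 at 3.86 ± 0.860 and 2.91 ± 0.759 CPM. All members together came to 82.7 ± 2.34 (saline) and 77.0 ± 8.91 CPM (morphine) in females and to 94.2 ± 9.05 (saline) and 67.0 ± 7.98 CPM (morphine) in males. These sums are dominated by a few genes and were not tested. In tissue RNA, fewer cells that express a gene and less RNA per cell cannot be told apart.

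**Figure D3:**
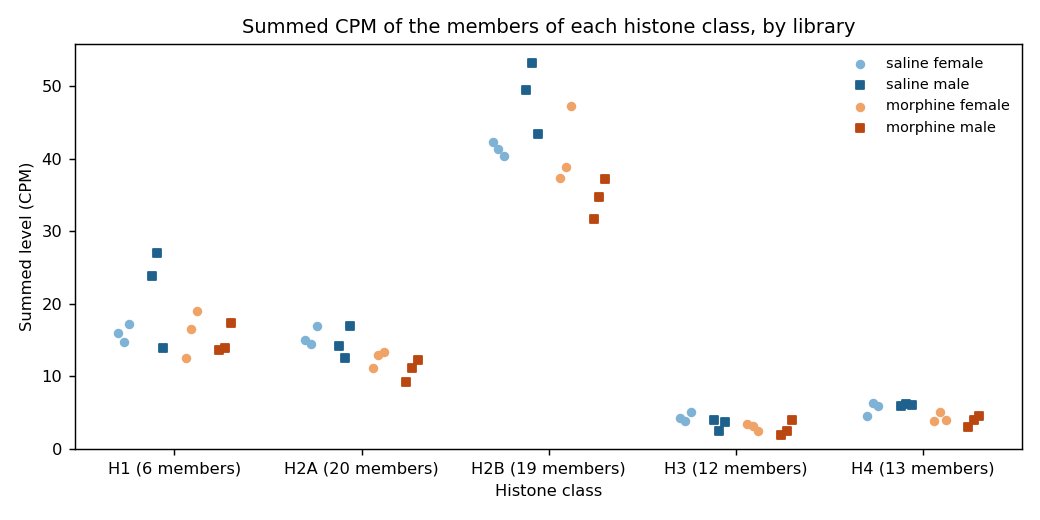
Summed CPM of the members of each histone class (vertical axis), with 1 point per library and colour and shape giving the 4 groups of 3 mice. H2B is the largest class in all 12 libraries, and saline males 1 and 2 hold the highest H1 sums.

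To determine which members differed with morphine, all genes that passed the filter were tested in edgeR with sex as a covariate. A gene was called when its unadjusted p was under 0.05 and its absolute log2 fold change over 0.26. Of 18608 genes, 221 (1.19%) were called and 108 (0.58%) were called lower in morphine mice. The called members were Hist1h2bc, Hist3h2a, and Hist1h4i, 3 of the 20 tested (15%), all lower in morphine mice. After Benjamini-Hochberg adjustment over all genes, 0 of the 18608 genes passed 0.05 by edgeR's quasi-likelihood test, and the adjusted p of each member was 1 after rounding. Without adjustment, 3 members had a p under 0.05 by this test, 3 by DESeq2, and 4 by exactTest, and adjusted over all genes 0 members passed by either of those tools. The other 50 members had too few counts to be tested.

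Hist1h2bc was at 17.2, 17.5, and 16.6 CPM in the saline females and 14.2, 14.7, and 19.01 CPM in the morphine females. The saline males had 21.4, 21.6, and 18.3 CPM and the morphine males 11.7, 13.2, and 13.5 CPM. The morphine males were the lowest group, and 1 morphine female was above 4 of the 6 saline mice. The log2 fold change was -0.38 (SE 0.12), and the exact permutation test over all 924 arrangements of the treatment labels gave p = 0.0108 (two-sided, sex not kept). The study's qPCR primers for this gene (acaccagctccaagtgatcc and ccagcactgttgagtggtaca, 5′ to 3′) matched its transcript at bases 398 to 417 and 446 to 466, and no other annotated transcript held either one. No qPCR values were analysed here, and the paper reports that qPCR did not bear out its RNA-seq results. Without saline males 1 and 2 together, the log2 fold change of Hist1h2bc was -0.24 (SE 0.12) and it was not called.

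Hist3h2a (ENSMUSG00000078851, chr11:58954685-58956830, plus strand), which encodes an H2A protein, was at 13.3, 12.8, and 14.6 CPM in saline females and 12.4, 11.0, and 15.3 CPM in saline males. In morphine females it was at 9.77, 11.1, and 11.2 CPM and in morphine males at 8.23, 10.3, and 11.0 CPM. The lowest saline mouse, a male, was within the range of the morphine mice, so the groups overlapped at 1 end. The log2 fold change was -0.36 (SE 0.11; exact permutation test, two-sided, p = 0.00649), and it stayed between -0.41 and -0.31 with each mouse left out.

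Hist1h4i (ENSMUSG00000060639, chr13:22040636-22041362, minus strand), an H4 gene, was lower in level. It was at 1.89, 2.52, and 2.41 CPM in the saline females and 1.26, 1.70, and 2.02 CPM in the morphine females. The saline males had 2.09, 3.52, and 2.33 CPM and the morphine males 1.43, 1.25, and 1.77 CPM. Only the top morphine female exceeded any saline mouse. Its 841 counts over 12 libraries give a coarser value than the 6798 of Hist1h2bc. The log2 fold change was -0.64 (SE 0.19; exact permutation test, two-sided, p = 0.00433, where the smallest possible is 0.00216).

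**Figure D4:**
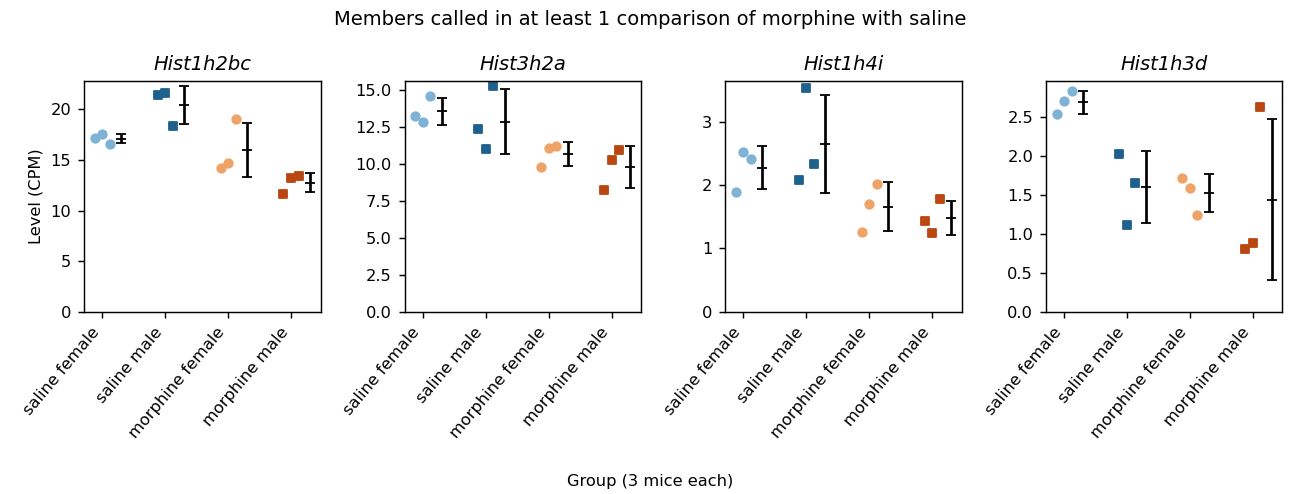
CPM of Hist1h2bc, Hist3h2a, Hist1h4i, and Hist1h3d (vertical axes, each from 0) in the 4 groups, with 1 point per mouse and the mean and SD (n = 3) beside the points. Hist3h2a and Hist1h3d do not overlap between treatments in females. In males Hist1h2bc and Hist1h4i do not overlap, and Hist3h2a is separated only by 10.98 against 10.95 CPM. Hist1h3d of morphine male 6 lies far above the other morphine males.

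The other 17 tested members were not called. Of the 20 tested, 17 (85%) had a log2 fold change below 0, against 57.4% of all genes tested, and the median was -0.28 against -0.02. Values ran from -1.14 for Hist1h2ad, an H2A gene with 109 counts in all, to 0.25 for Hist1h2bj, an H2B gene with 131 counts. By class, all 3 tested H1, all 3 H2A, both H3, and all 4 H4 genes were below 0, and 5 of the 8 H2B genes were. Levels of members are not independent, since they come from the same libraries and partly from shared sequence. None of the 20 had groups of 6 that did not overlap, which 0.043% of all tested genes had.

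For 4 members with more than 1000 counts that were not called, the SE exceeded the size of the log2 fold change. These were Hist2h2be, Hist1h2be, Hist3h2ba, and the H1 gene Hist1h1e. Hist2h2be, an H2B gene whose windows all lie in no other gene, was at 3.99 to 6.19 CPM in saline mice (median 5.43) and 4.56 to 5.47 CPM in morphine mice (median 5.02), with a log2 fold change of -0.07 (SE 0.12). Hist1h2be, also H2B, was at 9.33 to 11.7 and 7.38 to 13.4 CPM, with -0.09 (SE 0.15). In both genes the range of one treatment lay within that of the other. Hist3h2ba lies on chromosome 11 in the same cluster as Hist3h2a. It was at 3.42 to 12.1 CPM in saline mice and 4.26 to 8.18 CPM in morphine mice, and its log2 fold change of -0.28 had an SE of 0.31. The SE of Hist3h2a was 0.11, so that its value of -0.36 was the more precise. The H2B gene Hist1h2bg, with 564 counts in all, had medians of 1.53 and 1.18 CPM and a log2 fold change of -0.46 (SE 0.24). It was called lower in morphine mice without saline female 5 (-0.55), morphine female 1 (-0.60), or morphine male 5 (-0.57).

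The remaining tested H3 and H4 genes were not called either. Hist2h3c2, of which 38.4% of the windows lie in no other gene, was at medians of 1.44 and 1.24 CPM in saline and morphine mice (log2 fold change -0.17, SE 0.20). Hist2h4, which shares no window with another gene, had medians of 1.76 and 1.38 CPM (-0.15, SE 0.23). Hist1h4c and Hist1h4d had 215 and 115 counts in all libraries. Their log2 fold changes were -0.37 (SE 0.31) and -0.94 (SE 0.46), so that the larger value came with the larger error. The 3 members above 0 were H2B genes of chromosome 13 with 131 to 187 counts: Hist1h2bj (0.25, SE 0.38), Hist1h2bp (0.19, SE 0.33), and Hist1h2bh (0.14, SE 0.48). For each of these, the SE exceeded the estimate.

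Without the library labelled morphine male 6, 6 members were called, all lower in morphine mice: the 3 above and Hist1h3d, Hist1h2ad, and Hist1h4d. In that fit 21 members were tested and 1.17% of all genes were called. Hist1h3d then had a log2 fold change of -0.85 (SE 0.19), compared with -0.48 (SE 0.29) with that library. Without saline males 1 and 2, 4 members were called, of which Hist1h2bj was higher in morphine mice and Hist3h2a, Hist1h4i, and Hist1h4d were lower. The log2 fold change of Hist1h1c went from -0.28 to 0.09 and that of Hist3h2ba from -0.28 to 0.27, and neither was called in either fit. In that fit 11.7% of all genes were called.

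The linker histone genes that passed the filter were Hist1h1c, Hist1h1e, and Hist1h1d, and no H1 gene was called. In the sex-combined fit their log2 fold changes were -0.28 (SE 0.20), -0.17 (SE 0.18), and -0.10 (SE 0.32). Hist1h1e was at 2.36 to 3.94 CPM in saline mice and 2.04 to 3.38 CPM in morphine mice, and Hist1h1d at 0.612 to 1.27 and 0.307 to 1.47 CPM, so that both overlapped over most of their range. Hist1h1a, Hist1h1b, and Hist1h1t, the last known from testis, had 74, 18, and 2 counts in all libraries and were not tested.

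In females, 328 of 18109 genes (1.81%) were called and 160 (0.884%) were called lower. Of 18 tested members, Hist3h2a and Hist1h3d were called (11.1%), both lower in morphine females. Hist1h3d (ENSMUSG00000099583, chr13:23575763-23577011, plus strand) was at 2.54, 2.70, and 2.83 CPM in saline females and at 1.72, 1.58, and 1.25 CPM in morphine females, with a log2 fold change of -0.83 (SE 0.23). Hist3h2a had a log2 fold change of -0.35 (SE 0.13). For both genes the groups did not overlap, which was so for 5.65% of all genes tested, and the exact permutation test gave p = 0.1, the smallest possible with 3 against 3. Hist1h2bc was at -0.11 (SE 0.13) and was not called. Below 0 were 12 of the 18 members, against 51.8% of all genes tested, with a median of -0.11 against -0.01. Neither Hist3h2a nor Hist1h3d was called by the female contrast of a single fit to all 12 libraries. Hist3h2a was also not called without saline female 6 (-0.28) or without morphine female 1 (-0.29).

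In males, 543 of 18166 genes (2.99%) were called and 194 (1.07%) were called lower. Hist1h2bc and Hist1h4i were the called members, 2 of 19 (10.5%), both lower in morphine males. Hist1h2bc was at 20.4 ± 1.84 CPM in saline and 12.8 ± 0.957 CPM in morphine males (SD, n = 3 each), with a log2 fold change of -0.68 (SE 0.15). It was called with any 1 male left out, at -0.73 to -0.62, and with saline males 1 and 2 left out it was at -0.55 (SE 0.18) and was called, as were 31.1% of all genes in that fit. Hist1h4i had a log2 fold change of -0.84 (SE 0.28) and was not called without saline male 2 (-0.59), morphine male 4 (-0.81), or morphine male 5 (-0.68). Groups did not overlap for 4 members (Hist1h2bc, Hist1h4i, Hist3h2a, and Hist1h2ac), against 9.1% of all genes tested. The exact permutation test gave p = 0.1 for each called one, the smallest possible with 3 against 3. Hist3h2a was separated only by 10.98 CPM in saline male 2 against 10.95 CPM in morphine male 6. Whether groups stay apart under a scaling other than TMM was not tested. Hist1h2ac, the other gene of the divergent pair, was at 0.295 to 0.624 CPM in morphine males against 0.635 to 0.950 CPM in saline males. The nearest libraries, morphine male 4 and saline male 2, held 21 and 29 of its counts and nearly touched. Its log2 fold change of -0.86 (SE 0.38) was not called, and in females the value was 0.19 (SE 0.42).

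All 19 members tested in males had a log2 fold change below 0, against 62.4% of all genes tested, with a median of -0.46 against -0.06. Scaled by total counts, 18 of 19 were below 0, with a median of -0.34 against 0.06, and without saline males 1 and 2 it was 15 of 21. The count of called members moved with single libraries. It was 5 without saline male 3, when 28.6% of all genes were called, and 1 without saline male 2 or without morphine male 5. Without saline male 3, the adjusted p in edgeR was 0.0142 for Hist1h2bc, 0.0239 for Hist1h1c, and 0.0387 for Hist3h2ba, among 2141 genes with an adjusted p under 0.05. Hist1h1c (-0.85, SE 0.18) and Hist3h2ba (-0.99, SE 0.25) were called there, and without saline males 1 and 2 they were at 0.21 and 0.67 and were not called. Without the library labelled morphine male 6, 3 of 21 members were called in males, and 2.47% of all genes. These were Hist1h2bc (-0.73, SE 0.20), Hist1h4i, and Hist1h3d, which was at -0.93 (SE 0.37) there and at -0.15 (SE 0.51) with that library. With only 1 saline male left when saline males 1 and 2 were left out, its spread was taken to be that of the morphine males.

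**Figure D5:**
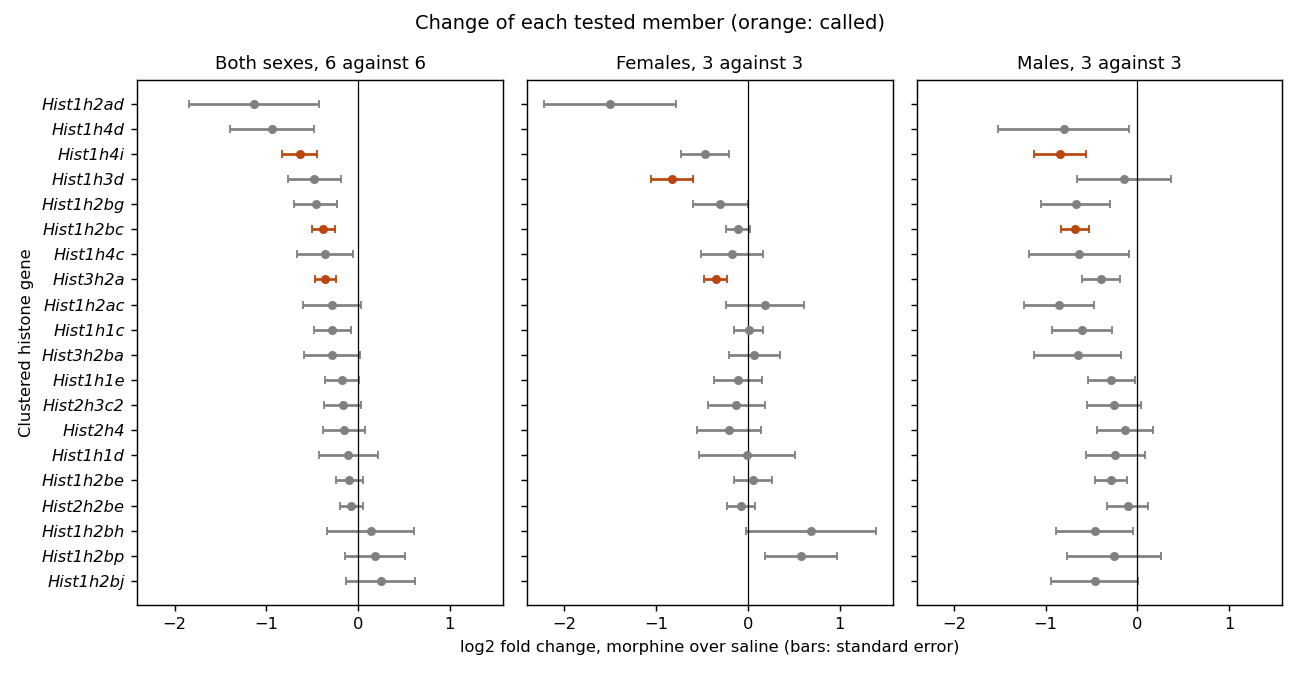
Log2 fold change of each of the 20 members tested in the sex-combined fit (horizontal axis, morphine over saline, with bars for the standard error from edgeR), for both sexes, females, and males. Orange points are called members; most points lie left of 0 in the sex-combined fit (17 of 20), and the points in males all do (18 of 19 with scaling by total counts).

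Whether the change differed between the sexes was tested as the interaction of treatment and sex. Of 19027 genes, 559 (2.94%) had an unadjusted p under 0.05, and none had an adjusted p under 0.05. Hist1h2bc and Hist1h2bj were the 2 of 21 members (9.52%) under that threshold, and the smallest adjusted p of a member in edgeR was 0.985. For Hist1h2bc the change in males minus that in females was -0.56 (SE 0.20), a larger drop in males. Without saline males 1 and 2 it was -0.42 (SE 0.22) and no longer under the threshold, and no member was. Without saline male 3 it was -0.65 (SE 0.18), with an adjusted p of 0.0406 in edgeR, among 1796 genes with an adjusted p under 0.05. Hist1h2bj was at 0.122 to 0.255 CPM in saline females and 0.257 to 0.490 CPM in morphine females, against 0.184 to 0.503 and 0.197 to 0.384 CPM in males, a difference of -1.46 (SE 0.67) at a level of a few counts per library. For Hist3h2a, the difference was -0.03 (SE 0.24). Its estimates in females and males were thus side by side at -0.35 and -0.40, though it was called only in females. For Hist1h3d the difference was 0.69 (SE 0.56), so that its call in females is no test of a difference between the sexes, and without the library labelled morphine male 6 it was called in males as well.

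The genes that make and handle histones were compared next, from lists chosen with earlier results of these data known. The list of replication-independent histone genes held 11 genes, many of which are expressed outside S phase and give polyadenylated RNA. All were tested, and 1 was called lower and none higher in the sex-combined fit. This was H2afj (-0.30, SE 0.12), which encodes an H2A variant. The median of the list was -0.11 in both sexes together, 0.08 in females, and -0.31 in males. In males H2afz, which encodes the variant H2A.Z, was called (-0.56, SE 0.16), at 50.1, 52.7, and 36.9 CPM in the saline males and 32.0, 31.4, and 31.6 CPM in the morphine males. Again, saline males 1 and 2 hold the top values of the 12 libraries, of which the others were at 30.6 to 39.2 CPM.

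No gene was called in any of the 3 fits among the 17 tested genes of histone RNA processing and transcription, such as Slbp and Npat, a transcription coactivator of histone genes, with medians of -0.01, -0.03, and -0.03. The 17 histone chaperone genes, which carry histones to DNA, also had no call, with medians of -0.02, -0.03, and -0.06 in the sex-combined, female, and male fits. Of the 36 genes of S phase and mitosis, 4 were called higher and none lower in the sex-combined fit, with a median of 0.03. Over all genes, 1.19%, 1.81%, and 2.99% were called in the sex-combined, female, and male fits. The paper lists Cdca5, Melk, and Cdk2, all called here, among its differentially expressed genes from these mice. Their calls are thus no independent result. Cdca5, which holds sister chromatids together, was higher (0.96, SE 0.23), as were the cell cycle kinase gene Melk (0.63, SE 0.15) and Mcm6 (0.64, SE 0.26), a subunit of the replicative helicase. Cdca5 was at 0.291 to 0.538 CPM in saline mice and 0.620 to 1.10 CPM in morphine mice, and Melk at 0.582 to 0.729 and 0.951 to 1.15 CPM. Neither gene had overlapping groups, which was so for 0.043% of all genes tested. In females 2 genes of this list were called higher and none lower (median 0.04). In males 2 were called higher, Melk and Cdca5, and 1 lower (median -0.01). The lower one was Pcna, the sliding clamp of DNA replication (-0.31, SE 0.13), at 30.8, 31.8, and 33.2 CPM in the saline males and 25.6, 26.7, and 25.4 CPM in the morphine males. A difference between this list and the clustered histone genes was not tested.

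Markers of other cells also varied between the groups, and several did so differently in females and males. Cerebellar granule lineage markers (8 of 9 tested in the sex-combined fit) summed to 142 to 216 CPM in morphine males and 117 to 162 CPM in saline males. In males 3 of them were called higher. Sums in females were 129 to 145 CPM with morphine and 121 to 161 CPM with saline, and 1 marker was called lower there. Atoh1, a marker of their precursors, was at 0.061 CPM or less in every library. Choroid plexus markers summed to 415 to 834 CPM in morphine and 263 to 524 CPM in saline males, and 4 of 5 were called higher in males. In females they summed to 29.3 to 163 CPM with morphine and 9.97 to 468 CPM with saline. Mature oligodendrocyte markers summed to 28400 to 35800 CPM in morphine males and 32600 to 51300 CPM in saline males. Microglia markers came to 97.9 to 99.7 and 109 to 136 CPM, and red blood cell markers to 132 to 263 and 153 to 472 CPM, in the same order. In morphine and saline females, microglia markers came to 111 to 120 and 90 to 124 CPM and red blood cell markers to 144 to 264 and 111 to 223 CPM. Mature oligodendrocyte markers came to 34900 to 39800 and 32100 to 41700 CPM in those females. The female median log2 fold changes of these 3 lists were 0.14, 0.20, and 0.02, against -0.42, -0.66, and -0.31 in males. Meningeal fibroblast markers summed to 69.6 to 151 CPM in morphine and 106 to 174 CPM in saline mice, with 1 of 5 called lower in the sex-combined fit. Oligodendrocyte precursor markers summed to 822 to 962 CPM in morphine and 815 to 992 CPM in saline mice, with none of 6 called in any fit. Over all genes, 1.19%, 1.81%, and 2.99% were called in the sex-combined, female, and male fits. The part of these cells in the histone values was not tested.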

How the data were processed

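Brainstem poly-A RNA of 12 mice (100 bp single-end reads, 1 lane) was trimmed with Trimmomatic, aligned to mm10 with STAR, and counted over Ensembl GRCm38 exons with featureCounts by the authors, per the methods and the submitters' processing notes. The study's text calls the deposited values normalized read counts. They are whole-number counts per gene with unequal library totals and were used as raw counts. Settings for strand and for reads with several positions are not given in the sources used here.

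The main test was the quasi-likelihood F test (edgeR 4.0.16, R 4.3.3) after TMM scaling and filterByExpr. Adjusted p values are Benjamini-Hochberg over all genes tested, and standard errors are the fold change over the root of F. CPM uses TMM factors over the 12 libraries, and log2 CPM for the exact tests a prior count of 2. Gene models are GENCODE M21 (GRCm38), and promoter windows (250 bases before to 50 after the start) are RefSeq's, matched by synonym and position. All 70 members matched a RefSeq gene. Replicates are separate mice.

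Named members are those called, those with an interaction p under 0.05, the 10 highest per kb, the tested H1 genes, Hist1h2bc, and Hist3h2a, and in each list of related genes at most 3 called. The members and lists were chosen with earlier results of these data known. The same replicate number in both treatments was not taken to mark paired mice in the main fits, and the labels do not give pairs. Alternatives were DESeq2 1.42.0, DESeq2 size factors, total counts, other filters and thresholds, exactTest, other covariates, and leaving out each mouse.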

Additional observations from a re-analysis of the deposited data

Results flagged for a closer look

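The change in males minus that in females was -0.56 on the log2 scale for Hist1h2bc and -1.46 for Hist1h2bj, and both were singled out because the interaction of treatment and sex had an unadjusted p under 0.05 in edgeR. Neither had an adjusted p under 0.05, and 2.94% of all genes had an unadjusted p under that threshold. The difference of Hist1h2bc stayed under the threshold with each mouse left out (-0.66 to -0.41) and not with saline males 1 and 2 left out together (-0.42). The difference of Hist1h2bj, a gene with 131 counts in 12 libraries, lost the threshold with 8 of the 12 mice left out in turn. No single library of 6 stood apart by Dixon's test in the 24 groups examined for the named members. The test looks for 1 library apart from the others. It therefore cannot decide whether saline males 1 and 2, both high for Hist1h1c and Hist3h2ba, stood apart together.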

How the results depend on the processing

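The 3 members called in the sex-combined fit were also called by DESeq2, with DESeq2 size factors, with total counts, with no sex covariate, and with at least 10 counts in every library. With the replicate number as a block, 3 members were called, the same ones. Deviations of same-numbered mice correlated at -0.36 to 0.18, and 0 of 6 saline mice correlated best with their own number. These correlations cannot decide whether same-numbered mice shared a litter, since such mice were of opposite sex and the dam was not labelled. With an adjusted p as the rule, 0 members were called in the sex-combined, female, and male fits. With no filter on low counts, 5 of 57, 5 of 54, and 4 of 52 members were called in these fits, and 2.01%, 3.15%, and 2.83% of all genes. From the fit over all 12 libraries, 0 members were called in females and 3 in males, against 1.15% and 4.15% of all genes. The interaction gave 1 member with total counts, 1 with at least 10 counts in every library, and 0 without saline males 1 and 2, an alternative chosen after seeing the data. Leaving out 1 mouse in turn gave 3 to 6 called members in the sex-combined fit, 2 to 3 in females, 1 to 5 in males, and 1 to 5 for the interaction. The 6 came without the library labelled morphine male 6, when 1.17% of all genes were called. The 5 in males and the 5 for the interaction came without saline male 3, when 28.6% and 24.2% of all genes were called. In females, 1.12% to 7.95% of all genes were called. The cause of these shifts was not tested, except that removing the filter adds members with few counts.

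Each value that reversed under the alternatives run was of a member not called in that same fit, though Hist1h3d and Hist1h2bj passed the test in females and in the interaction. In the sex-combined fit, Hist1h1d ranged from -0.394 to 0.047 with 1 mouse left out. In females the ranges were -0.15 to 0.14 for Hist1h1c, -0.66 to 0.40 for Hist1h1d, -0.24 to 0.14 for Hist1h1e, -0.12 to 0.28 for Hist1h2be, and -0.18 to 0.30 for Hist3h2ba, and Hist1h1d was at 0.004 from the fit over all 12 libraries. In males they were -0.93 to 0.16 for Hist1h3d, -0.434 to 0.025 for Hist1h1d, and -0.268 to 0.079 for Hist2h2be, which was at 0.018 with total counts. Without saline males 1 and 2, the sex-combined values of Hist3h2ba, Hist1h1d, and Hist1h1c were 0.272, 0.128, and 0.092, and in males those of Hist3h2ba, Hist1h2bj, Hist1h1d, and Hist1h1c were 0.67, 0.59, 0.36, and 0.21. Of the 70 members, 50 had too few counts for the sex-combined fit, and the parts of depth and of shared sequence in this were not tested.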
